A study of Mus musculus with 2 samples.

Results

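The genes described here make cholesterol and fatty acids: 32 genes chosen by name for their known place in these pathways, of 33038 genes with counts in either library. All 32 were found by symbol in both count tables. They comprise 7 enzymes from mevalonate synthesis to squalene, 8 enzymes from squalene to cholesterol, 5 genes of sterol sensing and transport, 4 of fatty acid synthesis, 6 desaturases and elongases, and 2 enzymes that activate fatty acids. The rule that lists them uses no measured value, though they were chosen with earlier results of these data known. None of them formed the groups of cells they are compared in.

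Cells build cholesterol from acetyl-CoA through mevalonate and squalene, and build fatty acids from the same acetyl-CoA by way of malonyl-CoA. SREBP transcription factors, encoded by Srebf1 and Srebf2, switch on both pathways when sterols run low, while SCAP escorts them and INSIG proteins hold them back in the endoplasmic reticulum. In the beta cells of the islet, ATP-citrate lyase (Acly) turns citrate exported from mitochondria into cytosolic acetyl-CoA, and cholesterol is a component of the membranes of insulin granules.

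RevGel-seq, in which each cell is tied to a barcoded bead inside a reversible gel, was applied to dissociated, hand-picked pancreatic islets of control C57BL/6J mice. The animals were 8 weeks old and male, with no treatment or modified allele named. Both libraries are technical replicates of 1 islet preparation, each loaded with 10000 cells, so the spread between them holds no difference between animals and every p-value measures technical spread only. Library 1 held 735 cells with 15931154 UMIs (deduplicated transcripts) and library 2 held 748 cells with 17440292, with 0 barcodes in common.

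Cells were grouped by which hormones reached 1% of their UMIs: insulin (Ins1 and Ins2 together), glucagon (Gcg), somatostatin (Sst) or pancreatic polypeptide (Ppy). Insulin-only cells numbered 182 in library 1 and 190 in library 2. Gcg-only cells numbered 182 and 174, Sst-only cells 35 and 23, and Ppy-only cells 54 and 68. Cells with both Gcg and Ppy numbered 65 and 86, those with Sst and Ppy 77 and 71, and 91 and 92 cells reached the threshold for no hormone. Levels are CPM, UMIs of a gene per 1000000 UMIs of its group after the 5 hormone genes were removed. The 6 beta cell markers other than insulin summed to 53974 and 55541 CPM in insulin-only cells. They summed to 15094 and 15387 CPM in Sst-only cells, 4614 and 2011 CPM in Ppy-only cells and 750 and 575 CPM in Gcg-only cells. In Gcg-only cells the 5 alpha cell markers other than Gcg summed to 46695 and 48295 CPM. The 8 endothelial markers summed to 806 CPM in Sst-only cells of library 1 and to 43.6 CPM in those of library 2, and the 8 leukocyte markers to 65.9 and 0 CPM. In insulin-only cells endothelial markers stood at 207 and 32.8 CPM, and in Gcg-only cells at 72.0 and 276 CPM. In the endothelial-like and leukocyte-like cells defined below, the same lists summed to 27816 and 24723 and to 4637 and 5473 CPM. The part of such cells in the results was not tested.

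Promoter sequences were matched for 25 of the 32 genes in RefSeq (31 promoters, GRCm38.p6). The SREBP binding motif SRE (TCACNCCAC), the E-box CACGTG, the CCAAT box and the GC box GGGCGG were searched on both strands in the 250 bases before each start. CCAAT occurred in 64.5% of the members' promoters and in 33.8% of all 32851, and the GC box in 67.7% against 32.7%. The E-box occurred in 16.1% against 6.02%, and the SRE letters in 3.23% against 1.05%. A match describes letters and is not a binding site. Shown here, 5′ to 3′ on the gene's strand with every match in capitals, are Acly, Insig1 and Msmo1, which were higher in insulin-only cells than in each other single-hormone group. Fads2, which was lower there than in Gcg-only and Ppy-only cells, and Hmgcs1, whose promoter alone among the members' held the SRE letters, are shown beside them. Scd2 and Sqle, also higher in insulin-only cells than in each other single-hormone group, had no matched promoter. The Scd2 call against Sst-only cells held under 5 of 10 other settings. The windows lie at chr11:100528001-100528250 (minus strand) for Acly, chr5:28071162-28071411 (plus) for Insig1, chr8:64733579-64733828 (minus) for Msmo1, chr19:10101504-10101753 (minus) for Fads2 and chr13:119690101-119690350 (plus) for Hmgcs1.
Acly: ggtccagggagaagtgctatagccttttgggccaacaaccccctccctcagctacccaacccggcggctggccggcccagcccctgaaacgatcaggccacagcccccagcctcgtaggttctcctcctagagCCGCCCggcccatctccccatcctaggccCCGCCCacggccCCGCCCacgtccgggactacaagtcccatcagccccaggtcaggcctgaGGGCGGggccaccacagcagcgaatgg
Insig1: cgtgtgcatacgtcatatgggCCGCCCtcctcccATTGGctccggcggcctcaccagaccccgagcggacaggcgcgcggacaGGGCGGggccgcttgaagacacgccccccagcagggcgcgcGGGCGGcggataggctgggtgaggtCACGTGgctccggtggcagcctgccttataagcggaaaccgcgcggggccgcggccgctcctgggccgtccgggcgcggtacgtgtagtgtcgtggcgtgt
Msmo1: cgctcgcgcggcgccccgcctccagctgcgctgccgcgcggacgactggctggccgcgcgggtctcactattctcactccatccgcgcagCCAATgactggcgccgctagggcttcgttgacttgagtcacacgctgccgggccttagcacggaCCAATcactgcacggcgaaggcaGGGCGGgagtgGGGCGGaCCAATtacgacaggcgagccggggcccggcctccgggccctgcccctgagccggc
Fads2: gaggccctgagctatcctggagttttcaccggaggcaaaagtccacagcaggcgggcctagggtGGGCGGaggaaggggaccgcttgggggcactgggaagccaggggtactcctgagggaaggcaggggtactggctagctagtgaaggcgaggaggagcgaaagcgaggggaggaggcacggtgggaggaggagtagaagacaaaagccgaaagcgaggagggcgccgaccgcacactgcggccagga
Hmgcs1: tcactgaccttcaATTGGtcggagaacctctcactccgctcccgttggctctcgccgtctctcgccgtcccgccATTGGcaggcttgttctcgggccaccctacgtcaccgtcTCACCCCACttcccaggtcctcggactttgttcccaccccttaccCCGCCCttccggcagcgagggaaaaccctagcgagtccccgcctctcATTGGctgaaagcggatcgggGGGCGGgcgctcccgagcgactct
Msmo1 showed 3 CCAAT boxes and 2 GC boxes, Insig1 an E-box, 1 CCAAT box and 3 GC boxes, and Acly 4 GC boxes. Fads2 showed 1 GC box and none of the other letters. Hmgcs1 showed 1 SRE, 3 CCAAT boxes and 2 GC boxes. The first 20 transcribed bases at the RefSeq start lay in a GENCODE transcript of the same gene for 25 of the 31 promoters, and for Hmgcs1 they did not. A start inside a gene can pass this check. In GENCODE, on the minus strand, Msmo1 begins at chr8:64733792 and Fads2 at chr19:10101746. Most of the Msmo1 and Fads2 windows, with every match marked in them, therefore lies within the annotated gene. Insig1 begins at chr5:28071363, inside its window but after all its matches.

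The first comparison asked whether lipid synthesis genes differ between the hormone groups. Summed over the 15 enzymes from mevalonate to cholesterol, insulin-only cells held 661 and 649 CPM (libraries 1 and 2, in this order throughout). The sum was 326 and 314 CPM in Gcg-only cells, 316 and 325 CPM in Sst-only cells, and 415 and 405 CPM in Ppy-only cells. Insulin-only cells were above the other groups in both libraries, Ppy-only cells came next, and Gcg-only and Sst-only cells overlapped. Acly alone supplied 6447 of the 19665 member UMIs in library 1 and 7151 of 21646 in library 2, so it is given apart from the sums. Its level was 1028 and 1166 CPM in insulin-only, 571 and 664 CPM in Sst-only, 358 and 393 CPM in Gcg-only, and 407 and 347 CPM in Ppy-only cells. Insulin-only cells were highest and Sst-only cells second, while the ranges of Gcg-only and Ppy-only cells overlapped.

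**Figure D1:**
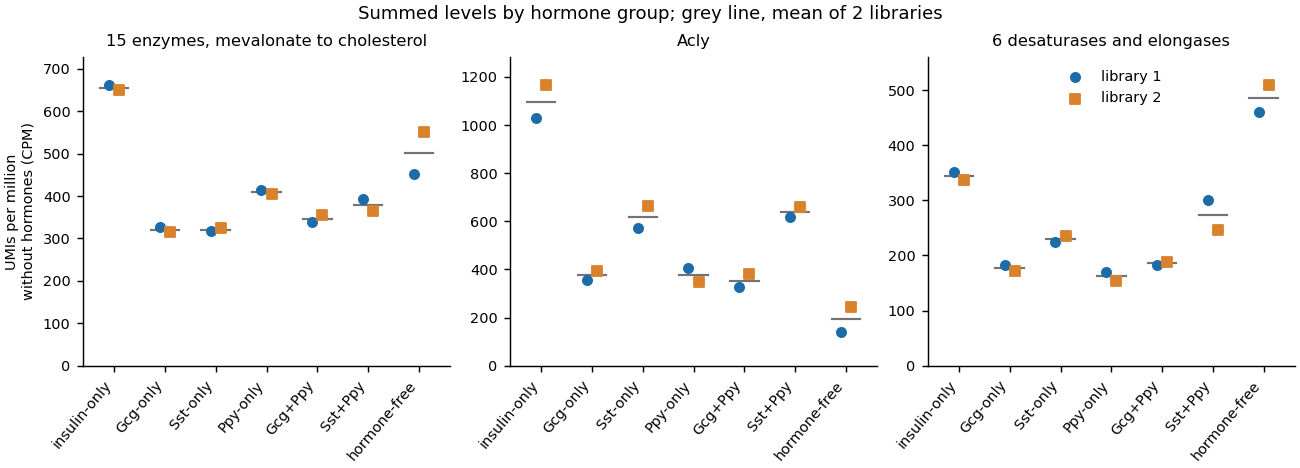
Level in CPM (without hormone UMIs) of the 15 sterol enzymes summed, of Acly, and of the 6 desaturases and elongases summed, in 7 hormone groups, with a circle for library 1, a square for library 2 and a grey line for their mean. Insulin-only cells hold 661 and 649 CPM of the 15 enzymes against at most 415 CPM in the other single-hormone groups, and hormone-free cells have the lowest Acly (140 and 246 CPM).

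Against Gcg-only cells, 18 of the 31 members that passed the filter on low counts were called by edgeR, 17 higher and 1 lower in insulin-only cells, where 25% of all 14955 genes tested were called, 12.8% higher and 12.2% lower. The 1 member left out, Idi1 (isopentenyl diphosphate isomerase), had 28 UMIs over all cells of both libraries. The median log2 difference of the members was 0.71, and of all genes tested 0. Against Sst-only cells 14 members were called, all higher in insulin-only cells, with 14.5% of all genes called (7.48% higher, 6.97% lower), and the median member difference was 0.99 against 0.03 for all genes. Against Ppy-only cells 9 were called, 8 higher and 1 lower, with 20.2% of all genes called (10.3% higher, 9.87% lower), and the medians were 0.53 and 0.01. These comparisons share the insulin-only sums, and the share of all genes is not given for fits with 1 sum left out. With 23 cells drawn for each sum, the number in the smallest, 7, 5 and 5 members were called, beside 10.4%, 7.38% and 7.32% of all genes. With any 1 of the 4 sums left out, the count against Gcg-only cells was 10 to 12 (10 without Gcg-only library 1). Against Sst-only cells it was 4 without Sst-only library 1 and 9 to 11 without another sum.

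**Figure D2:**
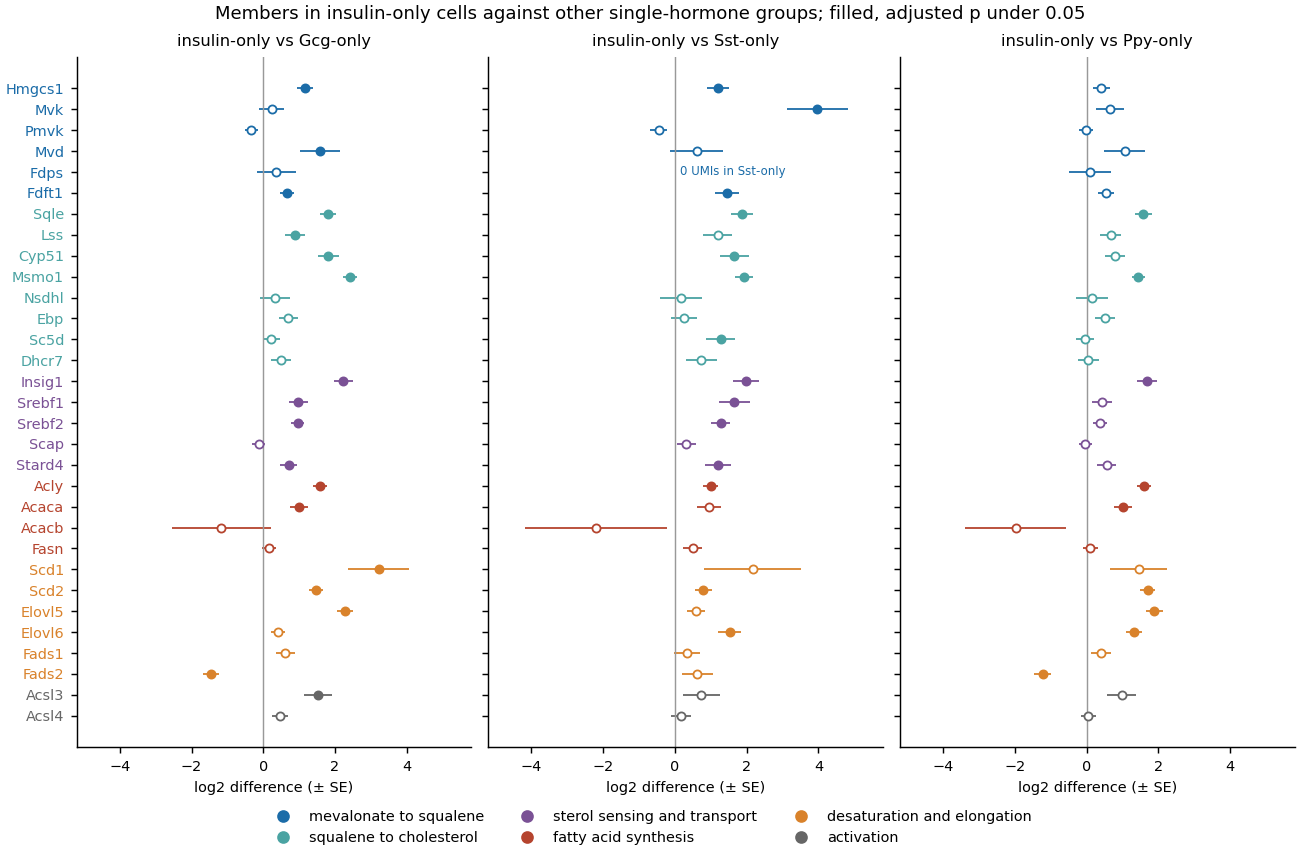
Log2 difference (insulin-only minus the other group) with its standard error for the 31 members tested, coloured by role, with filled circles for an adjusted p under 0.05. Filled circles lie to the right of 0 except Fads2, and Ppy-only cells have the fewest (9, against 18 and 14); Fdps, with 0 UMIs in Sst-only cells, has no point there.

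Along the mevalonate steps, 3 of 6 tested enzymes were higher in insulin-only than in Gcg-only cells, 3 of 6 than in Sst-only cells and 0 of 6 than in Ppy-only cells, where 1 of the 6 had an unadjusted p under 0.05. Hmgcs1, which makes HMG-CoA, stood at 94.9 and 74.1 CPM in insulin-only cells, 45.3 and 31.9 CPM in Gcg-only cells, 48.3 and 30.2 CPM in Sst-only cells and 65.3 and 66.3 CPM in Ppy-only cells. Insulin-only cells lay above the other groups in both libraries, with the smallest gap to Ppy-only cells. The log2 difference was 1.17 ± 0.22 (SE) against Gcg-only cells (adjusted p = 0.00111), 1.21 ± 0.31 against Sst-only cells (adjusted p = 0.0163) and 0.42 ± 0.23 against Ppy-only cells (adjusted p = 0.225). The call against Sst-only cells was lost when insulin-only library 1 or either Sst-only library was left out. An exon of Hmgcs1 overlaps Gm48342 on the other strand, and whether the counting used strand is not given in the sources used here.

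Fdft1, which joins farnesyl units into squalene, stood at 43.6 and 41.3 CPM in insulin-only cells against 17.6 and 16.8 CPM in Sst-only cells, a log2 difference of 1.45 ± 0.32 (adjusted p = 0.00643). Without Sst-only library 1 that call was lost, and its call against Gcg-only cells was lost with any of the 4 sums left out. Its exons overlap those of Ctsb on the other strand. Mvd, the mevalonate diphosphate decarboxylase, was sparse, at 5.54 and 13.1 CPM in insulin-only and 3.05 and 3.19 CPM in Gcg-only cells (log2 difference 1.58 ± 0.55, adjusted p = 0.0468). That call was lost without insulin-only library 2 or either Gcg-only library.

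Mevalonate kinase, Mvk, was lowest in Sst-only cells among the single-hormone groups. It had 1 UMI in Sst-only cells of library 1 and 0 in library 2, against 51 and 49 UMIs in insulin-only, 60 and 33 in Gcg-only, and 17 and 20 in Ppy-only cells. As a ratio of levels, insulin-only cells were 14.8 times Sst-only cells (95% exact interval 2.60 to 591, counting error only), Gcg-only cells 12.9 times (2.25 to 513) and Ppy-only cells 9.72 times (1.64 to 394). All 3 differences were called by edgeR, with adjusted p = 0.00528, 0.01004 and 0.0390. None was called by DESeq2, and leaving out 1 sum ended the calls against Gcg-only cells (either Sst-only library) and Ppy-only cells (any of the 4 sums). Cells with both Sst and Ppy held 5.58 and 6.40 CPM of Mvk, and Mvk was not called between them and Sst-only cells. Fdps, the farnesyl diphosphate synthase, had 0 UMIs in Sst-only cells of both libraries, which allows up to 6.59 and 10.1 CPM there. It was at 6.64 and 6.32 CPM in insulin-only cells, and the difference was not called (unadjusted p = 0.00923 in the edgeR fit, adjusted p = 0.0592).

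Past squalene, 4 of 8 enzymes were higher in insulin-only than in Gcg-only cells, 4 of 8 than in Sst-only cells and 2 of 8 than in Ppy-only cells. Msmo1 (chr8:64718139-64733792), which removes methyl groups at carbon 4 of sterol intermediates, was at 122 and 115 CPM in insulin-only cells. It was at 22.9 and 22.3 CPM in Gcg-only, 35.2 and 33.5 CPM in Sst-only and 50.7 and 40.5 CPM in Ppy-only cells. The insulin-only values lay well above every value of the other groups, and Gcg-only cells were lowest. The log2 difference was 2.42 ± 0.19 against Gcg-only (adjusted p = 2.04e-07), 1.94 ± 0.25 against Sst-only (8.11e-05) and 1.44 ± 0.19 against Ppy-only cells (5.10e-05). All 3 calls held with any 1 sum left out and under every other setting tried. Between Gcg-only and Ppy-only cells the log2 difference was -0.98 ± 0.21 (adjusted p = 0.00740). That call was lost without either Gcg-only library or Ppy-only library 1, and with equal numbers of cells the difference was 0.047.

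Sqle (chr15:59315077-59331192), squalene epoxidase, a rate-limiting step after squalene, was at 123 and 140 CPM in insulin-only cells. It was at 33.1 and 43.6 CPM in Gcg-only, 33.0 and 50.3 CPM in Sst-only and 42.1 and 48.1 CPM in Ppy-only cells. Those 3 groups overlapped and insulin-only cells stood above them, by 1.81 ± 0.22, 1.86 ± 0.31 and 1.59 ± 0.23 on the log2 scale (adjusted p = 2.14e-05, 6.73e-04 and 1.69e-04). Cyp51, the sterol demethylase, was at 50.9 and 61.9 CPM in insulin-only cells, 18.3 and 14.5 CPM in Gcg-only, 19.8 and 20.1 CPM in Sst-only and 31.8 and 35.2 CPM in Ppy-only cells. It was called against Gcg-only (1.82 ± 0.29, adjusted p = 2.17e-04) and Sst-only cells (1.66 ± 0.41, adjusted p = 0.0128), and the latter call was lost without insulin-only library 2 or either Sst-only library. Against Ppy-only cells the difference was 0.80 ± 0.28 (adjusted p = 0.0598). Exons of Cyp51 overlap Akap9 on the other strand. Sc5d, a sterol desaturase, was called against Sst-only cells (36.2 and 27.0 against 15.4 and 13.4 CPM, 1.27 ± 0.39, adjusted p = 0.0426), a call lost under 6 of 10 other settings. Lss, which closes the sterol rings, was called against Gcg-only cells (44.3 and 37.1 against 21.7 and 23.4 CPM), a call lost with any of the 4 sums left out. Nsdhl, Ebp and Dhcr7 were called in none of the 3 comparisons.

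Among the sterol sensors, Insig1, Srebf1, Srebf2 and the sterol carrier Stard4 were each higher in insulin-only than in Gcg-only and in Sst-only cells, and Insig1 alone of them was higher than in Ppy-only cells. Insig1 (chr5:28071363-28078662) was at 75.3 and 95.2 CPM in insulin-only cells, 16.0 and 20.9 CPM in Gcg-only, 19.8 and 30.2 CPM in Sst-only and 30.9 and 24.6 CPM in Ppy-only cells. Its lowest insulin-only value was above the highest value of the others. The log2 differences were 2.24 ± 0.26, 1.98 ± 0.36 and 1.69 ± 0.27 (adjusted p = 1.14e-05, 0.00151 and 3.23e-04). The call against Sst-only cells was lost without Sst-only library 1.

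Srebf2, the SREBP that acts mainly on cholesterol synthesis, was at 96.0 and 119 CPM in insulin-only and at 43.9 and 57.0 CPM in Sst-only cells (1.28 ± 0.26, adjusted p = 0.00355, lost without Sst-only library 1). Srebf1, which acts mainly on fatty acid synthesis, was at 46.1 and 43.0 CPM against 22.0 and 6.70 CPM (1.66 ± 0.43, adjusted p = 0.0163, lost without insulin-only library 1 or Sst-only library 2). Against Gcg-only cells the differences were 0.96 ± 0.19 for Srebf2 (adjusted p = 0.00125) and 0.98 ± 0.27 for Srebf1 (adjusted p = 0.0149). The Srebf1 and Stard4 calls against Gcg-only cells were lost with any of the 4 sums left out. Stard4 was at 75.7 and 82.5 CPM in insulin-only and 43.9 and 30.2 CPM in Sst-only cells, and its call there (1.21 ± 0.36, adjusted p = 0.0361) was lost with any of the 4 sums left out. Scap differed from each of the other groups by -0.13 to 0.32 on the log2 scale and was called against none. Its 95% interval ran from -0.48 to 0.22 against Gcg-only and from -0.40 to 0.34 against Ppy-only cells.

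In fatty acid synthesis Acly (chr11:100476353-100528000) was called in all 3 comparisons, by 1.58 ± 0.20 against Gcg-only (adjusted p = 2.16e-05), 0.99 ± 0.20 against Sst-only (adjusted p = 0.00332) and 1.60 ± 0.20 against Ppy-only cells (adjusted p = 3.19e-05). The call against Sst-only cells was lost without Sst-only library 1. The carboxylase Acaca, which makes malonyl-CoA, was at 39.5 and 48.4 CPM in insulin-only and 18.0 and 26.4 CPM in Ppy-only cells (1.01 ± 0.26, adjusted p = 0.0117). That call was lost without insulin-only library 2 or Ppy-only library 1. Fatty acid synthase itself, Fasn, was called in none of the 3, with log2 differences of 0.17 ± 0.20, 0.49 ± 0.28 and 0.10 ± 0.21 and levels of 39.6 to 54.7 CPM in all 4 groups. Acacb had 0 to 2 UMIs in each of these 8 sums.

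The desaturases and elongases did not follow 1 pattern. Scd2 (chr19:44293674-44306864), a stearoyl-CoA desaturase, was at 111 and 101 CPM in insulin-only cells, 43.8 and 35.1 CPM in Gcg-only, 54.9 and 87.2 CPM in Sst-only and 35.2 and 32.8 CPM in Ppy-only cells. It was higher in insulin-only cells by 1.47 ± 0.19, 0.79 ± 0.24 and 1.70 ± 0.21 (adjusted p = 3.58e-05, 0.0404 and 3.25e-05). The call against Sst-only cells was lost without either insulin-only library or Sst-only library 1, and held under 5 of 10 other settings. Scd1, a relative of Scd2, had 22 and 7 UMIs in insulin-only and 0 and 3 in Gcg-only cells, a ratio of 10.4 (95% exact interval 3.21 to 53.1). Its edgeR call (adjusted p = 0.0116) was lost without insulin-only library 1 or Gcg-only library 1.

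Elovl5, an elongase of polyunsaturated fatty acids, was at 126 and 131 CPM in insulin-only and 96.7 and 93.9 CPM in Sst-only cells, but at 27.8 and 26.6 CPM in Gcg-only and 38.7 and 34.0 CPM in Ppy-only cells. The groups thus fell into a high pair and a low pair. Insulin-only cells were higher than Gcg-only (2.28 ± 0.23, adjusted p = 3.08e-06) and Ppy-only cells (1.89 ± 0.24, adjusted p = 4.44e-05), and not called against Sst-only cells (0.59 ± 0.26, adjusted p = 0.161). Gcg-only cells were lower than Sst-only cells (log2 difference -1.69 ± 0.29, adjusted p = 0.00109), and Sst-only cells were higher than Ppy-only cells (1.30 ± 0.30, adjusted p = 0.0131), the second call lost with any of the 4 sums left out.

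Elovl6, an elongase of saturated chains, paired the groups differently. It was at 53.9 and 49.3 CPM in insulin-only and 42.3 and 37.5 CPM in Gcg-only cells, but at 17.6 and 23.5 CPM in Sst-only and 18.0 and 24.0 CPM in Ppy-only cells. Insulin-only cells were higher than Sst-only (1.52 ± 0.32, adjusted p = 0.00437, lost without Sst-only library 1) and Ppy-only cells (1.32 ± 0.23, adjusted p = 7.29e-04). Gcg-only cells were higher than Ppy-only (0.92 ± 0.23, adjusted p = 0.0212) and Sst-only cells (1.12 ± 0.33, adjusted p = 0.0371), and each of these calls was lost with any of its 4 sums left out. Against Gcg-only cells, insulin-only cells differed by 0.41 ± 0.20 (adjusted p = 0.159).

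Fads2, the delta-6 desaturase, was the member called lower in insulin-only cells. It was at 17.0 and 16.0 CPM there and 11.0 and 13.4 CPM in Sst-only cells, against 47.6 and 46.0 CPM in Gcg-only and 47.3 and 34.0 CPM in Ppy-only cells. Insulin-only and Sst-only cells were both low, the reverse of Elovl5. The log2 difference of insulin-only cells was -1.47 ± 0.22 against Gcg-only (adjusted p = 1.66e-04), -1.22 ± 0.24 against Ppy-only (adjusted p = 0.00198) and 0.62 ± 0.43 against Sst-only cells (adjusted p = 0.426). Gcg-only cells were higher than Sst-only cells (2.08 ± 0.38, adjusted p = 0.00143), and Sst-only cells were lower than Ppy-only cells (-1.84 ± 0.40, adjusted p = 0.00756, lost without Sst-only library 1). None of these Fads2 calls held with equal numbers of cells. Of the activating enzymes, Acsl3 was called against Gcg-only cells (18.5 and 16.8 against 6.09 and 6.37 CPM, 1.53 ± 0.39, adjusted p = 0.00868), lost without insulin-only library 1 or either Gcg-only library, and Acsl4 was called against none of the 3 groups.

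**Figure D3:**
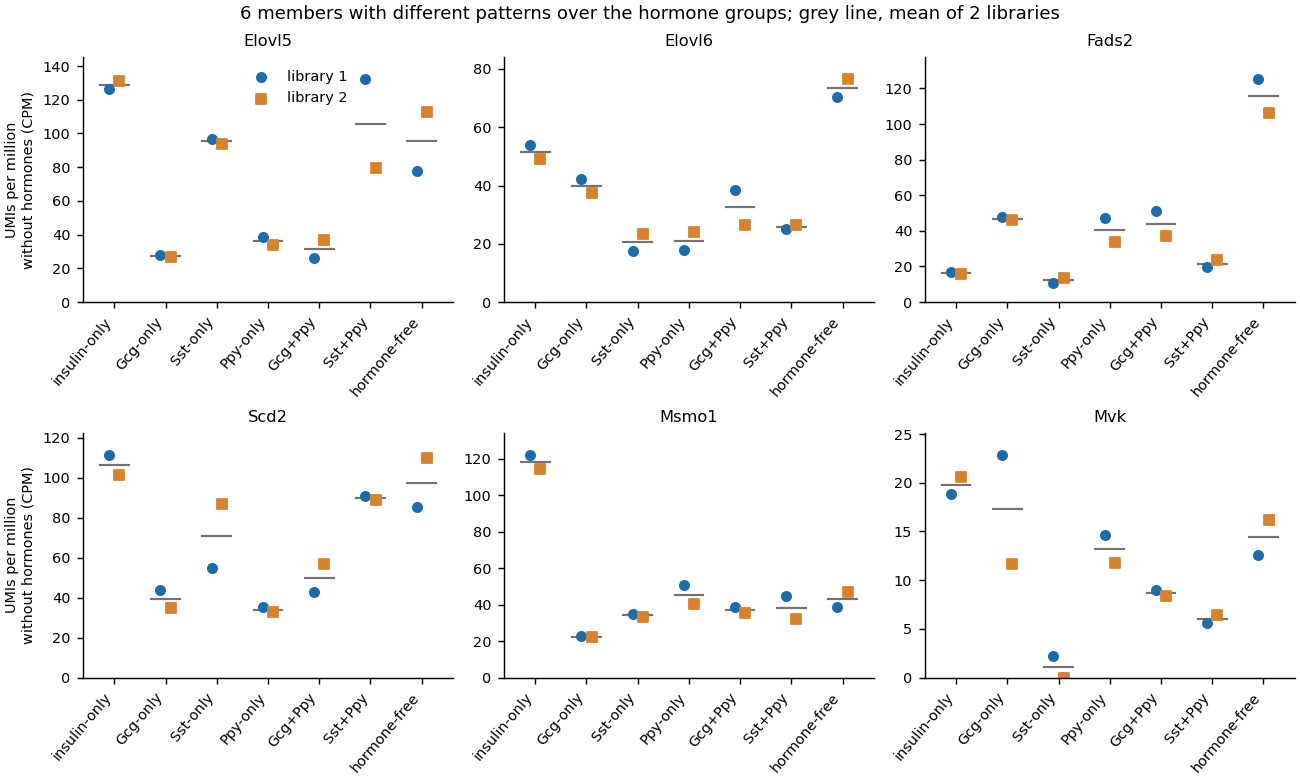
Level in CPM of Elovl5, Elovl6, Fads2, Scd2, Msmo1 and Mvk in 7 hormone groups, with a circle for library 1, a square for library 2 and a grey line for their mean. Elovl5 is high in insulin-only and Sst-only cells (93.9 to 131 CPM), Fads2 is low in the same groups (11.0 to 17.0 CPM), and Mvk is at 2.20 and 0 CPM in Sst-only cells.

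Among the groups without insulin few members were called. Between Gcg-only and Sst-only cells 4 of 31 were called, 3 higher and 1 lower in Gcg-only cells, with 12.3% of all genes called (6% higher, 6.31% lower). Between Gcg-only and Ppy-only cells 2 were called, 1 in each direction, with 9.49% of all genes called (4.72% higher, 4.77% lower). Between Sst-only and Ppy-only cells 3 were called, 1 higher and 2 lower in Sst-only cells, with 9.08% of all genes called (4.67% higher, 4.41% lower). These shares lie near those of all genes. The members are Elovl5, Elovl6, Fads2, Mvk and Msmo1, with the values above. The 15 sterol enzymes together were at 415 and 405 CPM in Ppy-only cells, above the 314 to 326 CPM of both other groups.

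Adding a second hormone to the definition of a cell did not move any member past the threshold. Between cells with Gcg and Ppy and Gcg-only cells, 0 of 31 members were called by edgeR and 0 by DESeq2, with 0.0401% of all genes called by edgeR (0.0334% higher, 0.00669% lower). An unadjusted p under 0.05 was reached by 3 members: Msmo1 at 38.5 and 35.5 CPM against 22.9 and 22.3 CPM (0.70 ± 0.22, adjusted p = 0.631), Mvk (-0.998 ± 0.417) and Scap (-0.44 ± 0.20). Between cells with Sst and Ppy and Sst-only cells, 0 were called by either tool, with 0.0134% of all genes called by edgeR (0.0134% higher, 0% lower). The member with an unadjusted p under 0.05 was Fdps, at 3.72 and 4.57 CPM against 0 UMIs in both Sst-only sums. The sum of the 15 enzymes was 339 and 355 CPM in cells with Gcg and Ppy, and 393 and 365 CPM in cells with Sst and Ppy.

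Cells with insulin and another hormone (37 and 27) held 512 and 456 CPM of the 15 enzymes, between insulin-only cells and the other hormone groups. Scrublet called 1 and 4 of them as doublets, and none of the insulin-only cells. They entered no test.

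The second comparison set insulin-only cells with much insulin against those with less, in tertiles by insulin share of UMIs within each library. The median insulin share was 29.6% and 32.4% in the bottom tertiles and 48.1% and 52.1% in the top tertiles. Of 28 members tested 1 was called, Acly, with 8.9% of all 10360 genes called (5.1% higher, 3.8% lower), and 3 had an unadjusted p under 0.05. Acly was at 890 and 1072 CPM in the bottom tertile, and at 1210 and 1359 CPM in the top tertile, with the middle tertile between them in each library. The groups did not overlap, and the log2 difference was 0.49 ± 0.12 (adjusted p = 0.00939). The call was lost without the bottom tertile of library 1 or the top tertile of library 2.

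The 15 sterol enzymes did not move with it: their sum was 670 and 613 CPM in the bottom tertile, 655 and 666 CPM in the middle tertile, and 656 and 687 CPM in the top tertile. The top and bottom tertiles overlapped, and the median log2 difference of the 13 sterol enzymes tested was 0.001. Of these 13, 0 were called, and 2, both past squalene, had an unadjusted p under 0.05 in the edgeR fit. Over single cells with at least 4000 UMIs without hormones (182 and 189), Spearman correlations with insulin share were taken without thinning, as a description. They were 0.187 and 0.207 for Acly, -0.002 and 0.079 for the 15 enzymes, and 0.043 and -0.301 for the 16 other members. Depth, as UMIs without hormones, fell along the same axis, with correlations of -0.471 and -0.520 with insulin share. Removing hormone UMIs lowers this depth in part by itself where the insulin share is high. Median total UMIs per cell were 22296.5 and 20397 in the bottom tertiles and 17921 and 15269.5 in the top tertiles. Markers of other cells differed too: the 3 delta cell markers other than Sst summed to 423 and 655 CPM in the bottom tertiles and 111 and 78.3 CPM in the top tertiles, and the leukocyte markers to 114 and 169 against 8.91 and 18.2 CPM. Their part in the Acly difference was not tested.

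**Figure D4:**
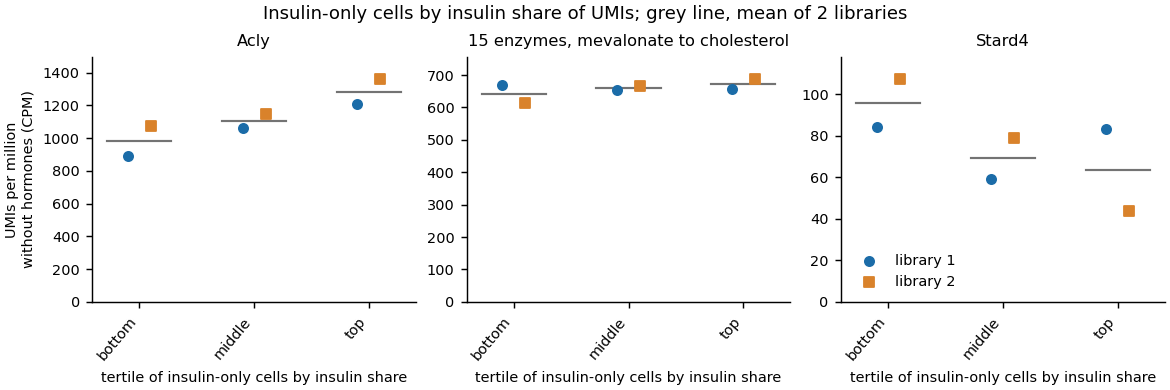
Level in CPM of Acly, of the 15 sterol enzymes summed and of Stard4 in insulin-only cells split into tertiles by insulin share, with a circle for library 1, a square for library 2 and a grey line for their mean. Acly goes from 890 and 1072 CPM in the bottom tertile to 1210 and 1359 CPM in the top tertile, while the 15 enzymes stay between 613 and 687 CPM.

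Within a group, single cells were also compared. After thinning to 4000 UMIs without hormones, the variance of the 15-enzyme count over its mean was 1.60 and 1.31 in insulin-only cells, 1.25 and 1.35 in Gcg-only cells and 2.28 and 1.64 in hormone-free cells. Pure counting gives a value of 1, and hormone-free cells of either library were farther above it than insulin-only cells of the same library. Without thinning, Spearman correlations were taken between the 15 sterol enzymes and the 16 other members without Acly. They were 0.267 and 0.130 over insulin-only cells (182 and 189), 0.054 and 0.002 over Gcg-only cells (182 and 174), and 0.264 and 0.428 over hormone-free cells (91 and 92). These cells share a library and its depth.

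The third comparison set hormone-free cells against the mean of the 4 single-hormone groups. Levels given for the hormone groups are means of their CPM. The log2 difference averages the groups on the log scale, so it need not match those levels. Of 31 members 17 were called, 16 higher and 1 lower in hormone-free cells, while 59.7% of all genes were called (33.4% higher, 26.3% lower). The median log2 difference was 0.67 for the members and 0.05 for all genes. All 6 desaturases and elongases were among those higher (Scd2 by summed UMIs, but not by the mean over cells, at -0.081), as were 2 of 6 tested enzymes to squalene, 4 of 8 enzymes past squalene and 2 of 5 sterol sensors and carriers. Acly was the member called lower, at 140 and 246 CPM against 591 and 642 CPM (log2 difference -1.43 ± 0.17, adjusted p = 3.57e-06).

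Scd1 was at 55.3 and 40.8 CPM in hormone-free cells against 3.01 and 1.59 CPM in the mean of the hormone groups (4.81 ± 0.45, adjusted p = 2.26e-07). Acacb, the carboxylase of mitochondria that restrains fatty acid oxidation, was at 9.43 and 18.1 against 0.955 and 0.487 CPM (4.37 ± 0.58, adjusted p = 9.64e-06). Fads2 was at 125 and 106 against 30.7 and 27.4 CPM (2.30 ± 0.16, adjusted p = 1.22e-08). Each hormone-free value lay above both values of the hormone groups. Stard4 was at 123 and 192 against 60.3 and 51.0 CPM (1.64 ± 0.19, adjusted p = 1.94e-06), and Elovl6 at 70.4 and 76.4 against 32.9 and 33.6 CPM (1.35 ± 0.17, adjusted p = 4.76e-06). These members were higher in hormone-free cells of both libraries. Acsl3 was at 34.0 and 20.8 against 13.0 and 9.24 CPM (1.45 ± 0.29), Sc5d at 49.7 and 60.2 against 27.1 and 26.6 CPM (1.19 ± 0.19), and Fads1 at 46.5 and 63.5 against 31.8 and 26.2 CPM (1.01 ± 0.20), with adjusted p = 4.96e-04, 7.58e-05 and 5.19e-04. Mvd (1.13 ± 0.42, adjusted p = 0.0300) overlapped between the groups, at 7.54 and 14.8 against 4.53 and 7.60 CPM, and its call was lost without Sst-only library 1 or hormone-free library 2.

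Hormone-free cells are a mixture. By markers, 28 and 34 of them were endothelial-like (at least 3 of 8 endothelial markers detected and more of them than of leukocyte markers), 40 and 40 leukocyte-like by the mirrored rule, and 23 and 18 neither. The last kind carried 4678 and 2441 CPM of 5 ductal markers and 5002 and 1357 CPM of 4 stellate markers and is left unnamed.

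The named members sat in different kinds of these cells. Scd1 was at 143 and 90.9 CPM in leukocyte-like cells, 4.05 and 24.5 CPM in endothelial-like cells and 11.1 and 11.1 CPM in the rest. Leukocyte-like cells were thus highest in both libraries, and the endothelial-like level rested on few cells, with 2 UMIs in 1 cell of library 1 and 24 UMIs in 2 cells of library 2. Fads2 was at 326 and 241 CPM in the unnamed kind, 42.5 and 78.5 CPM in endothelial-like and 3.59 and 34.5 CPM in leukocyte-like cells. Acsl3 was also highest in the unnamed kind, at 76.0 and 57.4 CPM against 6.08 to 17.9 CPM in the others. The unnamed kind entered no test.

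Between endothelial-like and leukocyte-like cells, 5 of 25 members tested were called, 3 higher and 2 lower in endothelial-like cells, with 34.7% of all 9184 genes called (18.2% higher, 16.6% lower). Stard4 was at 170 and 283 CPM in endothelial-like and 84.3 and 97.1 CPM in leukocyte-like cells (1.46 ± 0.34, adjusted p = 0.0204). Elovl5 was at 134 and 150 against 68.2 and 81.5 CPM (1.05 ± 0.28, adjusted p = 0.0312), and Fads1, the delta-5 desaturase, at 56.7 and 74.4 against 19.7 and 28.2 CPM (1.58 ± 0.39, adjusted p = 0.0252). All 3 were higher in endothelial-like cells in both libraries. Fasn was lower there, at 6.08 and 17.3 against 44.8 and 64.2 CPM (-1.95 ± 0.56, adjusted p = 0.0394), as was Scd1 (-2.69 ± 0.63, adjusted p = 0.0200). With either leukocyte-like library left out, 0 of the 5 calls remained, and DESeq2 called Scd1 and Stard4 alone of them. In endothelial-like cells of library 2, 3 of 34 cells held 76.9% of the Hmgcs1 UMIs, 71.6% of those of Acly and 46.8% of those of Stard4.

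**Figure D5:**
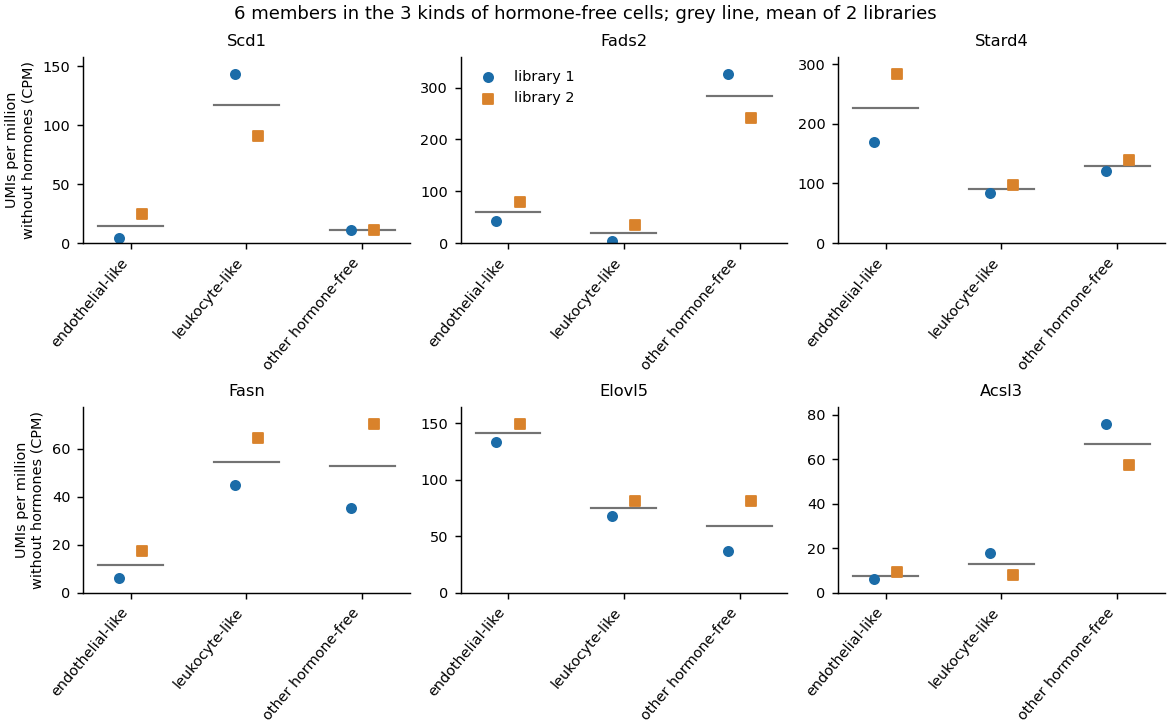
Level in CPM of Scd1, Fads2, Stard4, Fasn, Elovl5 and Acsl3 in endothelial-like, leukocyte-like and other hormone-free cells, with a circle for library 1, a square for library 2 and a grey line for their mean. Scd1 is highest in leukocyte-like cells (143 and 90.9 CPM), Stard4 in endothelial-like cells (170 and 283 CPM) and Fads2 in the other hormone-free cells (326 and 241 CPM).

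Beyond the 32 genes, 38 others of the same pathways were counted. Of these, 13 were called between insulin-only and Gcg-only cells (10 higher, 3 lower in insulin-only cells), 9 between insulin-only and Sst-only cells (6 higher, 3 lower) and 12 between insulin-only and Ppy-only cells (8 higher, 4 lower). Of all genes, 25%, 14.5% and 20.2% were called in these comparisons. The calls of these 38 genes are for the main setting only, and were not examined under other settings or with sums left out. Mlxipl, which encodes the glucose-responsive factor ChREBP, was at 988 and 984 CPM in insulin-only, 501 and 821 CPM in Sst-only, 137 and 79.7 CPM in Ppy-only and 36.9 and 30.1 CPM in Gcg-only cells. These groups did not overlap, and each of the 6 differences was called, by 4.91 ± 0.27 between insulin-only and Gcg-only cells (adjusted p = 4.10e-09) and by 0.75 ± 0.23 between insulin-only and Sst-only cells (adjusted p = 0.0382).

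Soat1, which esterifies cholesterol for storage, was at 88.6 and 81.7 CPM in insulin-only and 12.2 and 10.6 CPM in Gcg-only cells (2.93 ± 0.30, adjusted p = 3.13e-06). Npc2, a lysosomal cholesterol carrier, ran the other way, at 376 and 414 against 874 and 873 CPM (-1.11 ± 0.12, adjusted p = 6.51e-06). Hacd2, a dehydratase of the elongation cycle, and Mid1ip1, an activator of acetyl-CoA carboxylase, were lower in insulin-only cells than in each of the other 3 groups. For Hacd2 the differences were -1.18 ± 0.26, -1.66 ± 0.33 and -1.45 ± 0.27 against Gcg-only, Sst-only and Ppy-only cells (adjusted p = 0.00327, 0.00268 and 0.00122). For Mid1ip1 they were -1.01 ± 0.18, -0.95 ± 0.22 and -1.27 ± 0.18 (adjusted p = 5.98e-04, 0.00815 and 1.43e-04). In the top tertile of insulin share, 5 of 34 of these genes were called, beside 8.9% of all genes, with Npc2 higher and Abca1, Mid1ip1, Mlxipl and Nr1h2 lower than in the bottom tertile.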

How the data were processed

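Gene counts were analysed in 2 RevGel-seq libraries of mouse islets. Each library came as a table of raw counts as the authors deposited them, in UMIs per gene and cell barcode. According to the methods, Cytonaut made them, with barcodes above a UMI-tools knee, reads aligned to exons only, and GRCm38 with Ensembl genes. Intronic reads are therefore absent, and empty barcodes were not used here. No column held another sample.

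The members, the lists and the tests were chosen with earlier results of these data known. Cells were grouped by the hormones that reached 1% of UMIs, and Ins1, Ins2, Gcg, Sst and Ppy were then removed. UMIs were summed per library and group, since cells are not replicates, and groups with at least 10 cells in each library were used. The sums held 298300 to 2823605 UMIs and were tested in 3 fits by the quasi-likelihood method of edgeR (version 4.0.16, R 4.3.3) after filterByExpr and TMM. P-values were adjusted over all genes by Benjamini-Hochberg, with a threshold of 0.05. The fits were of 7 hormone groups (14 sums, 7 residual degrees of freedom), of hormone-free cells (4 sums, 2) and of tertiles of insulin share (6 sums, 3). The standard error is the log2 difference over the square root of its F. Ratios with few UMIs carry 95% exact conditional binomial intervals, and a count of 0 allows up to 3 counts. Both cover counting error only.

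Named with both libraries' values are members with an adjusted p under 0.05, a log2 difference of at least 1 and the same sign in both libraries between 2 single-hormone groups, and up to 10 called members in each other comparison. Msmo1 and Elovl6 between Gcg-only and Ppy-only cells, members called by less, members that were not called, and the members plotted were named after their values were seen.

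Scrublet (scanpy 1.11.5, Python 3.11.15) called 8 cells in each library as doublets. These stayed in, and 1 alternative drops them. In simulated counts for insulin-only against Gcg-only cells the fit recovered 65.6% of genes changed 2-fold and 96.9% of those changed 4-fold, and called 0.0443% of unchanged genes. The simulated spread between sums was below that of the data (fitted coefficient of variation 15.4%), and genes with few counts were left out. These shares therefore do not carry over to the real counts. Alternatives were DESeq2 1.42.0, RLE scaling, no filter, a replicate block, hormones kept, equal cells, doublets removed, thresholds of 0.5% and 2%, mean levels over cells, and each library left out. Scaling without TMM and leaving out 1 sum were added after the data were seen. Gene coordinates are from GENCODE M21 (GRCm38).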

Additional observations from a re-analysis of the deposited data

How the results depend on the processing

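Of the 73 calls of members over all comparisons, 30 held under all 10 other settings with a test. For 10 calls equal cells gave no test, and 5 of these held under the other settings. With any 1 sum of the comparison left out, 35 held. Direction turned in 2 of the 73: Msmo1 between Gcg-only and Ppy-only cells was at 0.047 with equal cells, and Scd2 in hormone-free cells at -0.081 by the mean over cells. With 1 whole library left out, 1 sum per group remained and no test was possible. All 73 kept their sign in either library alone. Taking the mean of CPM over cells in place of summed UMIs moved 25 others by more than their standard error. Removing called doublets or keeping hormones in the totals changed none of the 73 calls.

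Drawing equal numbers of cells (23, 28 or 60 per sum), and so fewer UMIs, left 7 members called between insulin-only and Gcg-only cells, 5 against Sst-only and 5 against Ppy-only cells. Beside these, 10.4%, 7.38% and 7.32% of all genes were called. Between single-hormone groups, no call of Cyp51, Fads2, Srebf2 or Elovl6 held, nor those of Insig1 against Sst-only and Ppy-only cells. Equal cells left 2 between Gcg-only and Sst-only, 0 between Gcg-only and Ppy-only, 1 between Sst-only and Ppy-only, 9 in hormone-free cells and 2 between endothelial-like and leukocyte-like cells. The shares of all genes there were 6.45%, 1.79%, 4.62%, 42.7% and 30.5%. Without the filter on low counts these numbers were 4 between Gcg-only and Ppy-only, 5 between Sst-only and Ppy-only, and 8 between endothelial-like and leukocyte-like cells. Of all genes, 5.54%, 5.61% and 19.2% were called there. DESeq2 called 1 between Gcg-only and Ppy-only and 2 between endothelial-like and leukocyte-like cells, beside 6.81% and 27.6% of all genes. A threshold of 0.5% gave 2 between Gcg-only and Sst-only cells, and a threshold of 2% gave 6 between Sst-only and Ppy-only cells. The share of all genes is not given for these thresholds. Scaling by total UMIs without TMM gave 5 between Sst-only and Ppy-only cells, beside 8.94% of all genes. The cause of these shifts was not tested.

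With 1 sum left out, so that the lone library of a group is assumed to vary like the others, insulin-only against Gcg-only cells gave 10 to 12 calls, against Sst-only 4 to 11 and against Ppy-only 8 to 9. Gcg-only against Sst-only cells gave 2 to 3, Gcg-only against Ppy-only 0 to 1 and Sst-only against Ppy-only 0 to 1. Hormone-free cells gave 16 to 20, cells with Gcg and Ppy 0 to 0, cells with Sst and Ppy 0 to 0, endothelial-like against leukocyte-like cells 0 to 6, and the tertiles of insulin share 0 to 2.

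The share of all genes called is not given for the fits with 1 sum left out. Sums of the same library did not deviate together from their group means (correlations of -0.0879 to 0.143 between hormone groups). The library number as a replicate block gave 18, 13 and 9 members for insulin-only cells against Gcg-only, Sst-only and Ppy-only cells. It gave 5, 2 and 3 among the latter, 17 in hormone-free cells, 0 and 0 for the groups with a second hormone, 6 between endothelial-like and leukocyte-like cells and 1 between the tertiles, and it ended 1 call. Scaling without TMM moved the median log2 difference of all genes to -0.11 between insulin-only and Sst-only cells and to -0.14 between the tertiles, and RLE scaling moved it to 0.14 in hormone-free cells. The depth of Sst-only cells, 455071 and 298300 UMIs, limits every comparison with them.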

Other observations

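Other genes of the pathways also differed in hormone-free cells. There 24 of 38 were called, 15 higher and 9 lower than the mean of the single-hormone groups, with 59.7% of all genes called. Calls of these genes, here and below, are for the main setting only. Thrsp, a regulator of lipid synthesis, was at 50.9 and 26.4 CPM in hormone-free cells and 3.52 and 0.371 CPM in the hormone groups (log2 difference 4.97 ± 0.51, edgeR adjusted p = 1.04e-06). It was at 164 and 57.1 CPM in endothelial-like cells and at 0 in leukocyte-like cells of both libraries. Scarb1, the receptor for high-density lipoprotein, was at 385 and 289 CPM in endothelial-like and 26.9 and 34.5 CPM in leukocyte-like cells (3.56 ± 0.30, adjusted p = 8.90e-04). Soat1 was lower in endothelial-like cells, at 26.3 and 30.6 against 78.9 and 100.3 CPM (-1.51 ± 0.34, adjusted p = 0.0181), and Npc2 at 275 and 261 against 576 and 882 CPM (-1.33 ± 0.29, adjusted p = 0.0155).

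Among hormone cells, Scarb1 was at 43.9 and 70.4 CPM in Sst-only cells and 14.4 and 10.5 CPM in insulin-only cells (-1.98 ± 0.40, adjusted p = 0.00316), and Sst-only cells were also above Ppy-only cells (1.44 ± 0.40, adjusted p = 0.0348). Endothelial markers were at 806 and 43.6 CPM in Sst-only cells of the same libraries, and their part in the difference was not tested. Soat1 was at 39.6 and 67.0 CPM in Sst-only cells and 12.2 and 10.6 CPM in Gcg-only cells (Gcg-only minus Sst-only -2.04 ± 0.40, adjusted p = 0.00292).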
